A study of Mus musculus with 18 samples.

Results

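Among the regions that GATA6 occupied early and kept during differentiation, 2899 were closed in untreated embryonic stem (ES) cells, gained pluripotency transcription factors (PTFs) only after GATA6 was induced, and were bound by SOX17. They made up 24.4% of the 11875 Early&Constant regions (Early below) and 6.84% of the 42403 regions in the deposited table. The members were chosen by 4 deposited classes, namely the time course of GATA6 signal, the presence of OCT4, SOX2 or ESRRB peaks before and after induction, the presence of SOX17 peaks and the accessibility class at d0. Of the Early regions, 4314 had ectopic PTF binding, 3725 of these were also bound by SOX17, and 2899 of those were closed. The remaining 826, of which 759 were moderately accessible and 67 accessible, are called already open below. GATA6, PTF and SOX17 occupancy and accessibility thus define the members and are not results here. The signal values behind the accessibility class were not used, so regions just inside and just outside that class could not be set side by side. The same PTF, SOX17 and accessibility classes were found together in 944 Late and 272 Transient regions.

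The series comprised 18 MNase-seq libraries, 3 at each of d0, 8h, 16h, 24h, 48h and 96h. All were mouse ES cells of the KH2 line, of genotype C57BL/6 x 129/Sv, with a doxycycline-inducible Gata6 cassette. They were grown with LIF on inactivated feeder cells, and every group but d0 received 1 ug/mL doxycycline (Dox). The transgene acts in ES cells in culture, and the study worked with clones of this line, whose assignment to libraries is not given in the sources used here. No column used here carried MNase signal, and the table gave no counts, so the depth behind each class could not be read from it. All values below describe regions, with 95% intervals that cover counting error among regions only. Neighbouring regions are not independent, so pooled differences are given with the count of chromosomes, among the 20 that hold members, on which they had the same sign.

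GATA6 is a zinc finger factor that drives the primitive endoderm (PrE), the lineage of the yolk sac, and it can recognise its motif in nucleosomal DNA. SOX17 is an HMG box factor that acts downstream of GATA6 in the same lineage. OCT4 and SOX2 bind a composite motif next to each other in pluripotent cells, and ESRRB is an orphan nuclear receptor of the pluripotency network. Closed chromatin is DNA that the ATAC enzyme reaches poorly, and most transcription factors bind little there.

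The best-scoring sequence of each scoring matrix among all regions is shown first, since every motif value below is a match to these matrices. Capitals mark the motif.
GATA6 motif: GGGAGATAAGAAA
SOX17 motif: CCCATTGTC
OCT4:SOX2 motif: CTTTGTTATGCAAAT
ESRRB motif: TCAAGGTCATA
The best GATA6 match was present in 3 members, the best SOX17 match in 49, the best OCT4:SOX2 match in 1 and the best ESRRB match in 3. Match scores are log-odds, and the top values were 15.2 for GATA6, 12.8 for SOX17, 21.6 for OCT4:SOX2 and 18.5 for ESRRB. Scores of different motifs are on different scales and are not compared with each other.

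The sequences of 4 member regions show how the motifs lay around a GATA6 summit, the base with the highest GATA6 signal. Each is the window that reaches 100 bp to each side of the summit, printed on the plus strand of mm10 (GRCm38, C57BL/6J), with GATA6 and SOX17 motifs in capitals.
Intergenic region with lower GATA6 binding after Oct4 knockdown, chr2:102501028-102501228: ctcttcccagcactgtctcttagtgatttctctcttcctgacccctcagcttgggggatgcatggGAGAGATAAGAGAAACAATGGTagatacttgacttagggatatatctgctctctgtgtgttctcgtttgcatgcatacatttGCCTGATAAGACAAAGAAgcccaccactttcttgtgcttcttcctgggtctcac
Region downstream of Sox17, chr1:4474574-4474774: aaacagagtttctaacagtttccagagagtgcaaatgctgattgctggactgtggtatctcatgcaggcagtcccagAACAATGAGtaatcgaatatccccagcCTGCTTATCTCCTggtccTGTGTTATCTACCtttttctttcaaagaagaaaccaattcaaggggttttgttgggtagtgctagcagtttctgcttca
Intron of Cubn, chr2:13487342-13487542: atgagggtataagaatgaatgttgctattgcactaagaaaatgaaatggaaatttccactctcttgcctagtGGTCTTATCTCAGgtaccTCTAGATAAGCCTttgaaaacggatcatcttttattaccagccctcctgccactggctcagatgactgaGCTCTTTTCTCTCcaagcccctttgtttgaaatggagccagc
Region upstream of Dab2, chr15:6244319-6244519: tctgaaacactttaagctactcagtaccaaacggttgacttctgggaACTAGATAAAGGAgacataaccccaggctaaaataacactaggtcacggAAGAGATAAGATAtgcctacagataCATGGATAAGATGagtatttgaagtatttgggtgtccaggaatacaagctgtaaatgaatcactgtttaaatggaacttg
In the first window a GATA6 motif scoring 15.1 was followed without a gap by a SOX17 motif scoring 9.42, and a second GATA6 motif overlapped a second SOX17 motif. In the window downstream of Sox17 there were 2 GATA6 motifs and 1 SOX17 motif. The windows at Cubn and Dab2 each held 3 GATA6 motifs and no SOX17 motif, although their whole regions held 1 and 2 SOX17 motifs. The regions at Cubn and Dab2 were thus bound by SOX17 without a SOX17 motif in the summit window.

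Almost all members carried the GATA6 motif, and most carried the SOX17 and the OCT4:SOX2 motif as well. A GATA6 motif was found in 2821 members (97.3%, interval 96.7 to 97.8), a SOX17 motif in 2488 (85.8%, 84.5 to 87.0) and an OCT4:SOX2 motif in 2468 (85.1%, 83.8 to 86.4). An ESRRB motif was less common, with 1319 members (45.5%, 43.7 to 47.3). GATA6, SOX17 and OCT4:SOX2 motifs occurred together in 72.5% of members (70.9 to 74.1) against 46.5% of the other 39504 regions (46.0 to 47.0). All 4 motifs were present in 34.8% of members, and 1 member had none.

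The members were also wide, which bears on these shares. Their width averaged 906 bp (SD 409), with a median of 824 bp and a range from 228 to 4343 bp. The other regions averaged 609 bp (SD 371). Members held 3.82 GATA6 motifs per region (SD 2.34, up to 22), but per kb the mean was 4.33 in members and 4.33 in the other regions. SOX17 motifs per kb were 2.46 in members and 2.31 in the other regions, a difference of 0.147 (0.0743 to 0.220) with this direction on 16 of 20 chromosomes. Windows of equal length around the summits were therefore used for the comparisons that follow.

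Around the summits, GATA6 and SOX17 motifs were concentrated, whereas OCT4:SOX2 motifs were as common as in the surrounding DNA. A GATA6 motif was present in 88.0% of the 2899 summit windows (86.8 to 89.2) and in 34.9% of 5456 flanking windows 3 kb away (33.6 to 36.2). For SOX17 the shares were 50.8% (49.0 to 52.6) and 29.9% (28.7 to 31.2). For OCT4:SOX2 they were 37.1% (35.3 to 38.9) and 37.1% (35.8 to 38.4). ESRRB motifs were found in 12.97% of summit windows (11.8 to 14.2) and 11.4% of flanking windows (10.6 to 12.3). The GC content was 43.8% at summits and 43.0% in flanking windows.

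**Figure D1:**
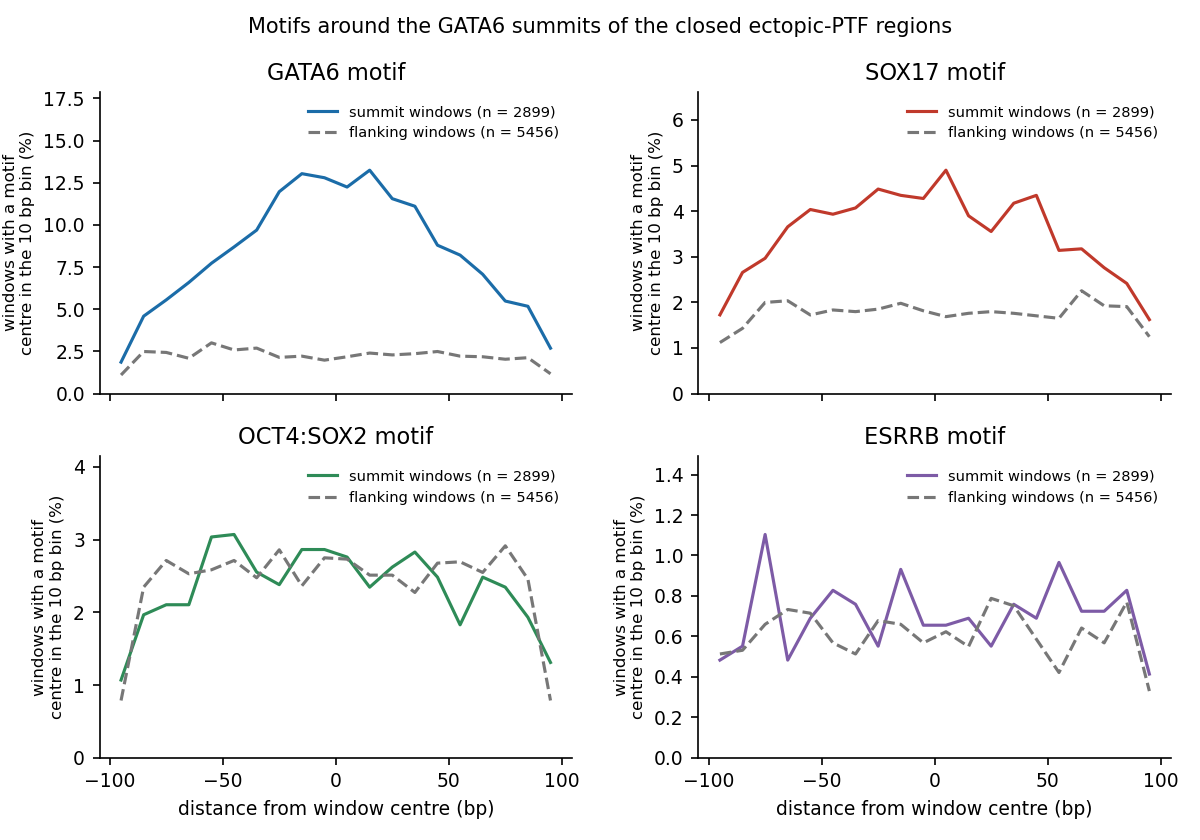
Share of windows (y axis, %) with the centre of a GATA6, SOX17, OCT4:SOX2 or ESRRB motif in each 10 bp bin (x axis, distance from the window centre in bp), for 2899 summit windows (coloured lines) and 5456 flanking windows (grey lines). The GATA6 curve reaches 13.2% beside the summit and the SOX17 curve 4.90%, while the OCT4:SOX2 curve stays at or below 3.07% in bins away from the window edge, close to the flanking windows.

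GATA6 motifs lay closest to the summit. The best GATA6 motif of a member lay a median of 55 bp from the summit, the best SOX17 motif 148.5 bp, the best OCT4:SOX2 motif 212 bp and the best ESRRB motif 216 bp. The best motif was within 50 bp of the summit in 47.0% of members with a GATA6 motif, 23.2% of those with a SOX17 motif, 14.3% of those with an OCT4:SOX2 motif and 10.99% of those with an ESRRB motif. For OCT4:SOX2 the share in the other regions was 27.8%, a difference of -13.5 points (-14.9 to -11.9) with this direction on all 20 chromosomes. These best motifs were taken over whole regions, and members were wider than the other regions. The mean distance from the summit was larger in members for all 4 motifs. The differences were 35.6 bp for GATA6, 54.6 bp for SOX17, 93.6 bp for OCT4:SOX2 and 82.6 bp for ESRRB. The part of width in these differences was not tested.

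The following 4 related sets of Early regions differ from the members in 1 class each. They were the 826 already open regions, 978 closed SOX17-bound regions with PTFs from d0, 1441 closed SOX17-bound regions without PTFs, and 455 closed regions with ectopic PTFs but without SOX17. Their mean widths were 964, 1209, 634 and 661 bp, so that the comparisons again used the summit windows.

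The OCT4:SOX2 motif at the summit was less common in members than in regions occupied by PTFs before induction. It was present in 37.1% of member windows and in 48.1% of windows with PTFs from d0, a difference of -10.98 points (-14.6 to -7.39) found on 17 of 20 chromosomes. In the windows with PTFs from d0 it was also more common than in their own flanking windows, at 37.8%. The best OCT4:SOX2 motif of the whole region scored 8.53 on average in members and 9.58 in regions with PTFs from d0, a difference of -1.06 (-1.25 to -0.866) found on all 20 chromosomes. Against regions without PTFs the difference in summit windows was small, at 3.36 points (0.324 to 6.34), with members higher on 13 of 20 chromosomes. Against already open regions it was 7.42 points (3.78 to 10.9), with members higher on 17.

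The SOX17 motif at the summit was more common in members than in regions that lacked SOX17 binding. It was present in 50.8% of member windows and in 24.2% of windows without SOX17, a difference of 26.6 points (22.1 to 30.7) found on 19 of 20 chromosomes. The share without SOX17 was below that in the flanking windows of the same set, 30.1%. Members did not differ beyond the interval from regions with PTFs from d0, by -1.98 points (-5.59 to 1.64), or from regions without PTFs, by -1.06 points (-4.21 to 2.09). They were above the already open regions by 7.31 points (3.45 to 11.1). The OCT4:SOX2 motif was more common where SOX17 was missing, in 47.7% of those windows, with a difference of members from it of -10.6 points (-15.5 to -5.73). The flanking windows of that set also held it more often, in 42.2% against 37.1% for members.

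GATA6 motifs were common in all 5 sets, with members above already open regions and below the other closed sets. The share of summit windows was 88.0% in members, 79.8% in already open regions, 89.3% with PTFs from d0, 92.6% without PTFs and 92.5% without SOX17. Members differed from already open regions by 8.25 points (5.37 to 11.3) and from regions without PTFs by -4.61 points (-6.36 to -2.76). The difference from regions with PTFs from d0 was -1.23 points (-3.41 to 1.15), within its interval. The mean best GATA6 score in the summit window was 10.6 in members (SD 2.37), 10.1 in already open regions, 11.02 with PTFs from d0, 11.1 without PTFs and 11.3 without SOX17.

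**Figure D2:**
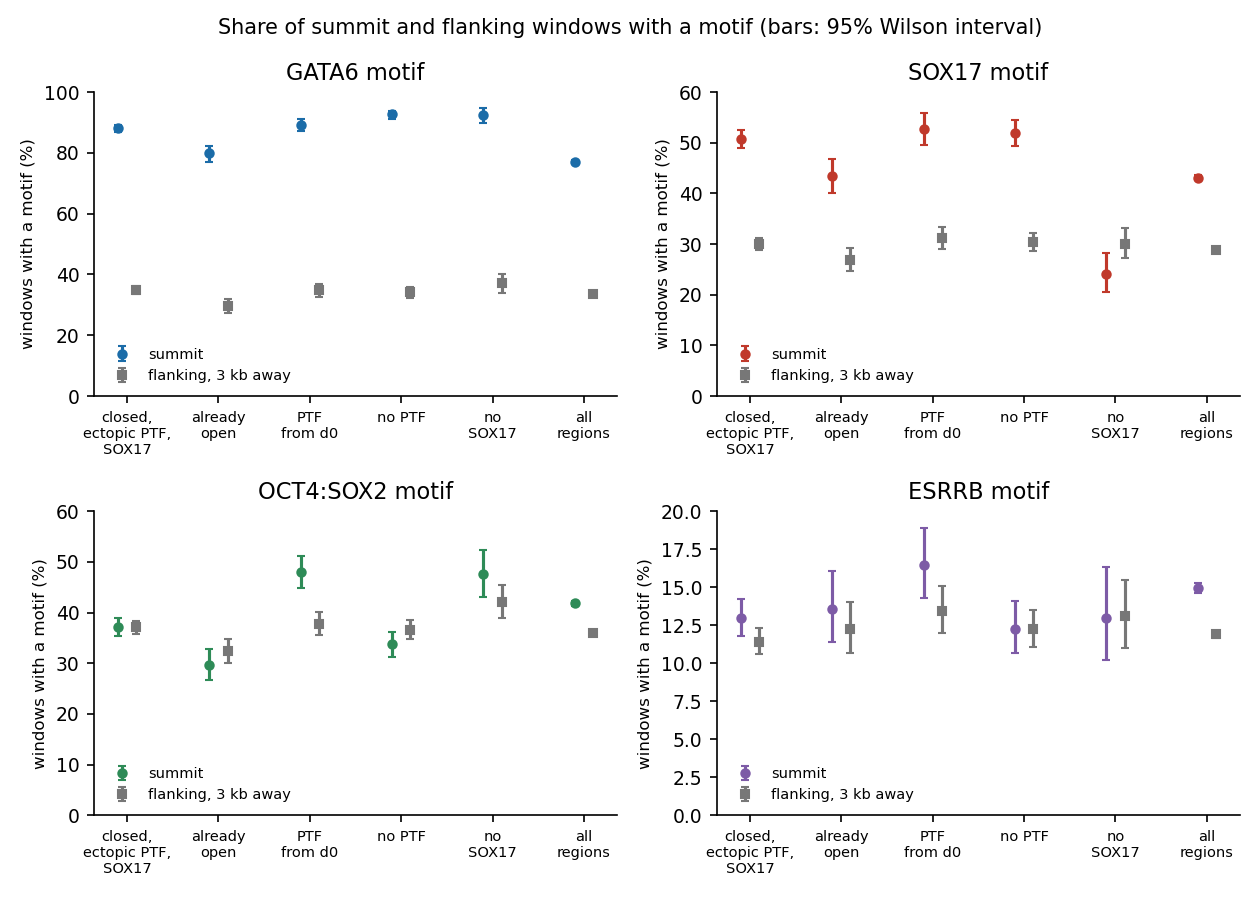
Share of windows with each motif (y axis, %) at summits and in flanking windows 3 kb away, for the members, the 4 related sets and all regions (x axis). Points are shares and bars 95% Wilson intervals. In the members the OCT4:SOX2 points of summit and flanking windows coincide at 37.1%, while in regions with PTFs from d0 the summit share of 48.1% lies above its flanking share.

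GATA6 and SOX17 motifs also lay side by side at the summits. The best motifs of the 2 factors were within 10 bp of each other without overlap in 171 summit windows (5.90%, 5.10 to 6.82) and in 62 flanking windows (1.14%, 0.888 to 1.45). Counting any pair of motifs, the shares were 12.9% (11.7 to 14.2) and 1.43% (1.15 to 1.78). These counts depend on how many motifs are present. Among windows that held both motifs, the best ones were side by side in 13.4% at summits and 11.2% in flanks. Any pair was so in 29.3% and 14.1%, which still depends on the number of motifs. The best pair was side by side in 6.44% of summit windows with PTFs from d0 and 7.22% without PTFs. It was so in 4.60% of already open regions and 2.20% without SOX17. Among windows with both motifs these shares were 14.0%, 15.3%, 13.7% and 9.71%, and 13.2% over all regions. The arrangement was thus not particular to members. In members, GATA6 and OCT4:SOX2 motifs were side by side in 97 summit windows (3.35%, 2.75 to 4.06) and in 1.36% of flanking windows. These made up 10.2% and 9.74% of windows with both motifs.

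Most members were classed as naive chromatin or facultative heterochromatin in ES cells. The deposited histone state was naive, a state named apart from enhancers, promoters and heterochromatin, in 1218 members (42.0%, 40.2 to 43.8) and facultative heterochromatin, the kind kept silent by Polycomb, in 823 (28.4%, 26.8 to 30.1). Primed enhancers made up 475 (16.4%), constitutive heterochromatin 219 (7.55%) and poised enhancers 140 (4.83%). Active enhancers and promoters were rare, with 17 (0.586%) and 7 (0.241%) members. Members minus the other regions of the table was 25.8 points for naive chromatin. The difference was smaller for facultative heterochromatin, at 6.49 points, and was -2.82 points for constitutive heterochromatin.

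Histone state and the accessibility class, which the rule used, both describe ES cells, and already open regions had mostly other states. Already open regions were naive in 0.726% and facultative heterochromatin in 1.69%, and were active enhancers in 24.7%, poised enhancers in 26.8% and promoters in 20.3%. Among closed sets, members were more often facultative heterochromatin than regions with PTFs from d0, by 7.53 points (4.42 to 10.5), on 17 of 20 chromosomes. In regions with PTFs from d0, 26.4% were primed enhancers. Facultative heterochromatin made up 32.5% of regions without PTFs and 29.9% of those without SOX17. In this state members differed from these sets by -4.16 points (-7.10 to -1.26) and -1.501 points (-6.15 to 2.86). Members were naive more often than regions without PTFs, by 8.70 points (5.65 to 11.7), on 18 of 20 chromosomes, while the differences from regions with PTFs from d0, 3.26 points (-0.308 to 6.77), and without SOX17, -2.60 points (-7.53 to 2.25), were within their intervals. At interquartile width, naive regions made up 38.6% of members, 40.4% with PTFs from d0, 33.0% without PTFs and 48.1% without SOX17.

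**Figure D3:**
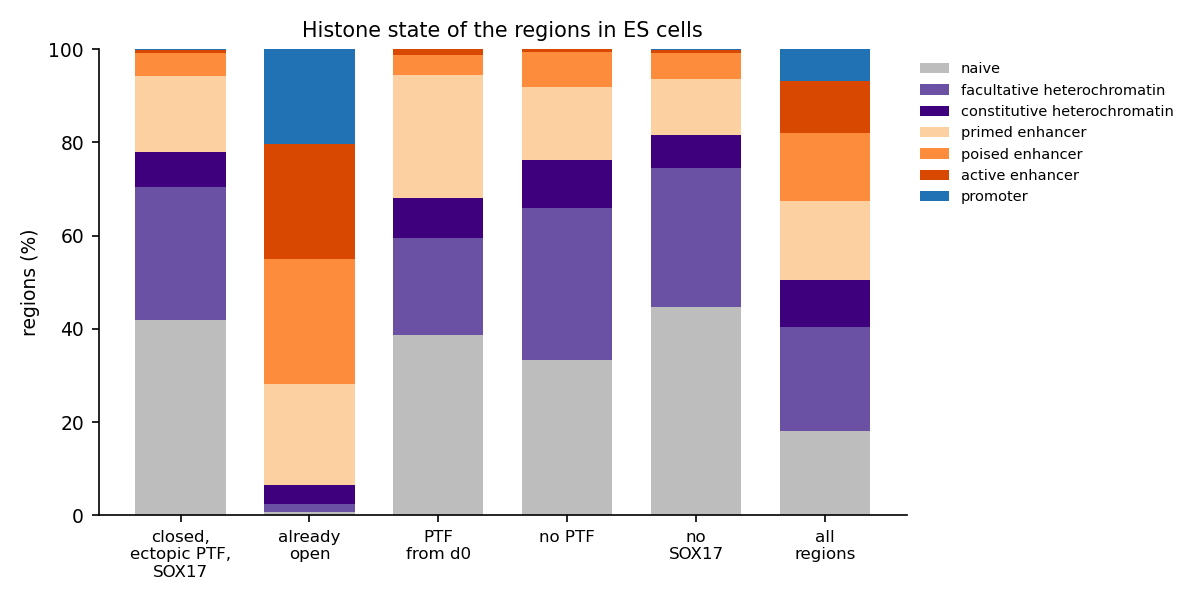
Stacked bars of the deposited histone state in ES cells (y axis, % of regions) for the members, the 4 related sets and all regions (x axis). Naive chromatin (42.0%) and facultative heterochromatin (28.4%) fill most of the member bar, whereas active enhancers, poised enhancers and promoters fill most of the bar of already open regions.

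Motif content also varied among the members by histone state. A SOX17 motif lay in the summit window in 54.1% of naive members, 49.1% of those in facultative heterochromatin and 45.5% of primed enhancers. The difference from naive members was -5.02 points (-9.41 to -0.598) in facultative heterochromatin and -8.63 points (-13.9 to -3.33) in primed enhancers. The GATA6 motif was least frequent in constitutive heterochromatin, at 79.0% (73.1 to 83.9), against 84.8% in primed enhancers (81.3 to 87.8), 90.4% in facultative heterochromatin (from 88.2) and 89.3% in naive members (from 87.5). Members in constitutive heterochromatin were narrower, with a mean of 752 bp (SD 315), than naive members with 931 bp (SD 399).

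In the study, Oct4 was knocked down with siRNAs as Dox was added, and GATA6 binding was measured after 2 days against control siRNAs. The authors classed each region as having lower, higher or unchanged GATA6 binding, and this class was not part of the rule. The knockdown libraries themselves and the level of Oct4 in them were not analysed here.

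GATA6 binding after Oct4 knockdown was lower in 360 members (12.4%, 11.3 to 13.7), where 6.25% of all regions were called lower. It was higher in 277 members (9.56%, 8.54 to 10.7), where 8.57% of all regions were called higher, and it was unchanged in 2262. The excess of lowered regions over the other regions was 6.62 points (5.44 to 7.89) and was seen on all 20 chromosomes. Among regions with a width in the interquartile range of the table it was 11.4 points (9.38 to 13.5). The excess of raised regions was 1.05 points, with an interval from -0.00274 to 2.21, and was not distinguishable from 0. At interquartile width it was -2.67 points (-4.01 to -1.08), the opposite direction.

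Members lay between the related sets in both directions. The share of lowered regions was 27.3% in regions with ectopic PTFs but without SOX17, 22.6% in those with PTFs from d0, 12.4% in members, 4.96% in already open regions and 2.64% in regions without PTFs. Members differed from the regions without SOX17 by -14.8 points (-19.3 to -10.8), on all 20 chromosomes, and from those with PTFs from d0 by -10.2 points (-13.1 to -7.37), on 19. Regions with PTFs from d0 were wider, and at interquartile width the lowered shares were 16.1% in members (14.2 to 18.3) and 20.5% in that set (15.04 to 27.3), with overlapping intervals. The share of raised regions was 0.440% without SOX17, 3.48% with PTFs from d0, 9.44% in already open regions, 9.56% in members and 17.6% without PTFs. Calls in the set without SOX17 were nearly all lowered and calls in the set without PTFs were mostly raised, whereas members held both.

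**Figure D4:**
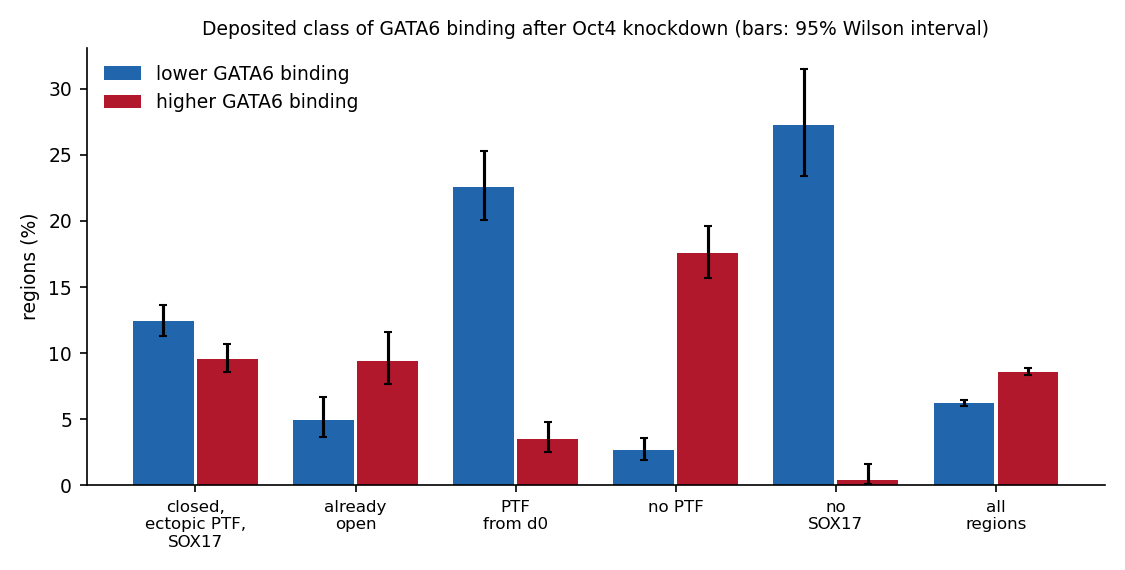
Share of regions (y axis, %) with lower or higher GATA6 binding after Oct4 knockdown, for the members, the 4 related sets and all regions (x axis), with 95% Wilson intervals. Members show 12.4% lowered and 9.56% raised regions, between the regions without SOX17 (27.3% and 0.440%) and those without PTFs (2.64% and 17.6%).

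Within the members, the SOX17 motif was least common at summits with lowered GATA6 binding and most common at summits with raised binding after Oct4 knockdown. A SOX17 motif lay in the summit window of 38.9% of the 360 lowered members (34.0 to 44.0), 50.8% of the 2262 unchanged ones (48.7 to 52.8) and 66.4% of the 277 raised ones (60.7 to 71.7). Lowered minus raised members was -27.5 points (-34.8 to -19.8), with this sign on 19 of 20 chromosomes. The OCT4:SOX2 motif lay in 42.2%, 35.8% and 40.8% of the windows, and lowered and raised members differed by 1.43 points with an interval from -6.28 to 9.06. Over whole regions, which were wider in raised members, an OCT4:SOX2 motif was present in 82.8% of lowered and 90.6% of raised members, a difference of -7.84 points (-12.97 to -2.48). The GATA6 motif was present in 84.4%, 88.6% and 88.1%.

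The same members and calls can also be divided by the SOX17 motif, which is another reading of these data and not a separate result. Of the 411 members with no SOX17 motif anywhere in the region, 19.0% were lowered (15.5 to 23.0) and 4.38% raised (2.79 to 6.82). Of the 867 members whose best SOX17 motif scored 11 or more, 9.34% were lowered (7.58 to 11.5) and 11.9% raised (9.89 to 14.2). In the other regions 4.08% were lowered and 4.22% raised without a SOX17 motif. With a score of 11 or more they were 6.45% and 13.8%, so the lowered shares there had the opposite order and the raised shares the same one. Over whole regions the OCT4:SOX2 motif gave no order like that of the SOX17 motif for lowered members. They made up 14.4% of the 431 members without the motif (11.4 to 18.01) and 11.3% of the 106 members with a score of 13 or more (6.60 to 18.8). With an OCT4:SOX2 motif in the summit window, 14.1% of members were lowered (12.2 to 16.4), and without it 11.4% (10.03 to 12.9). In the other regions the lowered share was 3.18% without an OCT4:SOX2 motif and 10.5% with a score of 13 or more. With the SOX17 motif in the summit window, 9.51% of members were lowered and 12.5% raised, and without it 15.4% and 6.52%. In the other regions the raised shares were nearly the same, 12.6% with and 5.50% without the motif, and the lowered shares 5.19% and 6.25%, so the order of raised regions was not particular to members. The related sets differed among themselves. Lowered regions without and with the motif made up 27.7% (23.8 to 32.0) and 18.02% (14.9 to 21.6) with PTFs from d0, 2.74% and 2.54% without PTFs, 28.1% and 24.5% without SOX17, and, in the opposite order, 3.43% (2.12 to 5.49) and 6.96% (4.76 to 10.1) in already open regions.

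Raised members were wider and lay in denser neighbourhoods than lowered members. Their mean widths were 1054 bp (SD 491) and 769 bp (SD 282), with 910 bp in unchanged members, and they held 2.83 and 1.61 SOX17 motifs per region. Per kb the means were 2.82 and 2.16, with a difference of lowered from raised members of -0.660 (-0.949 to -0.371). The mean distance to the nearest other GATA6 region was 15410 bp for raised and 28930 bp for lowered members. Among members of interquartile width, lowered minus raised members was -32.8 points (-43.3 to -20.3) for SOX17 motifs at the summit.

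**Figure D5:**
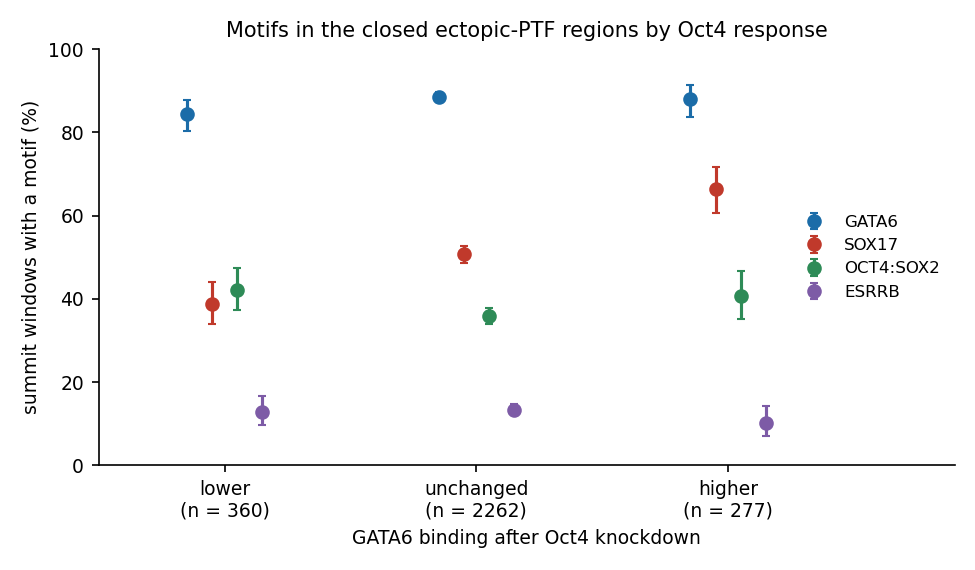
Share of member summit windows with each motif (y axis, %) by the class of GATA6 binding after Oct4 knockdown (x axis: lower, n = 360; unchanged, n = 2262; higher, n = 277), with 95% Wilson intervals. The SOX17 share increases from 38.9% to 66.4% from lower to higher, while the intervals of the OCT4:SOX2 motif overlap between lower and higher.

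The windows of 3 members near endoderm genes show raised regions, with capitals as above.
Intron of Lama1, chr17:67702030-67702230: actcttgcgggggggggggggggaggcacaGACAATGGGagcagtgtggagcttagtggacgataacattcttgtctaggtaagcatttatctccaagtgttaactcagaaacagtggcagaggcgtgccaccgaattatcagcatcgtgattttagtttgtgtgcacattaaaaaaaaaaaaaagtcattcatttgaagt
Region upstream of Srgn, chr10:62528503-62528703: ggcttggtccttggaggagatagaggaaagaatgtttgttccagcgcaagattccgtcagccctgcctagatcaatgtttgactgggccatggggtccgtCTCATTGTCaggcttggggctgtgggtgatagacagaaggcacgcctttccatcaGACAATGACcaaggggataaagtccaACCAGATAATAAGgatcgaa
Intron of Col4a2, chr8:11315543-11315743: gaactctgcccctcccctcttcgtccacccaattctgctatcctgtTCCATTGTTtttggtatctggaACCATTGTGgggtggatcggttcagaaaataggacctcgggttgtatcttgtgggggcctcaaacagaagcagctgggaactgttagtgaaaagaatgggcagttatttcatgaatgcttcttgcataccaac
In the Lama1 window the SOX17 motif had the top SOX17 score among members, 12.8, and no GATA6 motif was present. The Srgn window held 2 SOX17 motifs and 1 GATA6 motif, and the Col4a2 window 2 SOX17 motifs and no GATA6 motif. All 3 regions were facultative heterochromatin in ES cells. The best GATA6 motif of the region lay 982 bp from the summit at Lama1, 449 bp at Srgn and 292 bp at Col4a2.

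Members lay mostly in introns and between genes and were spread over the genome. The summit was in an intron in 1388 members (47.9%), between genes in 1251 (43.2%), within 1 kb of a transcript start in 188 (6.48%) and in an exon in 2.48%. Already open regions lay at promoters in 26.4%, with a difference of members from them of -19.9 points (-23.1 to -16.9). From the other regions of the table members differed less, by -6.33 points. The median distance of a member to a protein-coding start was 21058 bp. The mean was 74169 bp in members and 64835 bp in the other regions. Another member lay within 100 kb of 1173 members (40.5%) and within 10 kb of 345 (11.9%). The share of a chromosome's regions that were members ranged from 4.66% on chromosome 7 to 9.94% on X.

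PrE regulators often had a member nearby. Of 20 listed PrE regulators, 15 (75%, 53.1 to 88.8) had at least 1 member within 100 kb of the gene start, against 21.1% of 21911 protein-coding genes. The share was 8 of 16 (50%) for basement membrane and secretory genes, 6 of 14 (42.9%) for endocytosis and transport genes, 8 of 18 (44.4%) for pluripotency regulators and 5 of 16 (31.3%) for regulators of other lineages. Listed genes also lie in GATA6-rich surroundings. Measured against all GATA6 regions within 100 kb, members made up 30 of 252 (11.9%, 8.47 to 16.5) at PrE regulators. They made up 16 of 190 (8.42%) at basement membrane and secretory genes and 12 of 118 (10.2%) at endocytosis genes. At pluripotency regulators they were 11 of 193 (5.70%) and at other lineages 6 of 79 (7.59%), against 6.84% of the table. Of the 30 members at PrE regulators, 17 were facultative heterochromatin, against 28.4% of all members. At basement membrane and secretory genes 8 of 16 were in this state, and at endocytosis genes 5 of 12. At pluripotency regulators it was 3 of 11 and at other lineages 2 of 6.

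Among the PrE transcription factors, Gata4, which acts beside GATA6, had 3 members among the 22 GATA6 regions within 100 kb of its start. The nearest lay in its intron, 10303 bp downstream of the gene start, and GATA6 binding there was lower after Oct4 knockdown. This region held 4 GATA6 motifs but neither a SOX17 nor an OCT4:SOX2 motif, and its summit window is printed with capitals as before.
Intron of Gata4, chr14:63261289-63261489: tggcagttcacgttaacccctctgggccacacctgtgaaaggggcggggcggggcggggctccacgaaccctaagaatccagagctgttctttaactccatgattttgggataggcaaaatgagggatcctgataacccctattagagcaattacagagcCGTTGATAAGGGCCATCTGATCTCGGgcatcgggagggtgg
Sox17 itself had 2 members, the nearest 22680 bp downstream of the start, with 9 GATA6 and 5 SOX17 motifs. Foxa2, a forkhead factor of endoderm, had 5 members among 27 regions, the nearest 19032 bp upstream and with a SOX17 motif scoring 12.3. The nuclear receptor gene Hnf4a had 1, whose summit was 34 bp from the gene start and which was a poised enhancer. Pdgfra, the receptor that marks the PrE, had a member in the poised enhancer state 752 bp upstream. Sall1, a zinc finger factor gene, had 1 member 35230 bp upstream, which was lowered after Oct4 knockdown and carried no SOX17 motif. Dab2, an endocytic adaptor of PrE cells, had 3 members, with the nearest 55369 bp upstream. Of the 30 members at PrE regulators, 2 were lowered and none raised after Oct4 knockdown, beside 6.25% lowered and 8.57% raised over all regions.

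Near the listed basement membrane and secretory genes of endoderm, 4 of 16 members were raised and none lowered after Oct4 knockdown. Over all regions 8.57% were raised and 6.25% lowered, and the number is too small to set this list apart. The laminin gene Lama1 had 4 members, the nearest 4871 bp downstream and raised. The collagen genes Col4a1 and Col4a2 start next to each other and shared 3 members, the nearest 2817 bp from the Col4a1 start and raised. The proteoglycan gene Srgn had 3, the nearest 1152 bp upstream and raised. Lamb1 had 3, the nearest 8558 bp upstream with 7 GATA6 motifs. The prolyl hydroxylase gene P4ha2 had 1 member, 2749 bp downstream in an intron, which was unchanged and is shown because its window held 3 GATA6 and 2 SOX17 motifs.
Intron of P4ha2, chr11:54102744-54102944: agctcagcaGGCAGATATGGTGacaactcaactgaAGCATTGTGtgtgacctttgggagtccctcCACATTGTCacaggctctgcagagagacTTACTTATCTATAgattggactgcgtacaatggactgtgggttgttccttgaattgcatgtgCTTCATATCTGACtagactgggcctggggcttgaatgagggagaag

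For endocytosis and transport, Cubn and Lrp2, the receptors cubilin and megalin of the yolk sac, had 3 and 4 members. The nearest lay 4371 bp and 5677 bp downstream in introns, both in facultative heterochromatin and both unchanged after Oct4 knockdown. The nearest member to Pth1r, a hormone receptor gene, lay 6067 bp upstream and was raised. Of the 12 members at these genes, 1 was lowered and 3 were raised, with 6.25% and 8.57% over all regions.

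Pluripotency genes had members too. Klf4 had 3, the nearest 10507 bp upstream in facultative heterochromatin and with 8 GATA6 motifs. Sox2 had 2, the nearest 32977 bp downstream, and Nanog 1, 74766 bp downstream. Nr0b1, a nuclear receptor gene of ES cells, had 1 member 5068 bp downstream, which was lowered after Oct4 knockdown. Of the 11 members at pluripotency genes, 4 were lowered and 1 was raised, where all regions gave 6.25% and 8.57%. No member lay within 100 kb of Pou5f1, the gene of OCT4, or of Esrrb.

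Members with extreme values by the naming rule were as follows. A top-scoring GATA6 motif lay in an intron of Orc5 (chr5:22544718-22546085) and 3755 bp from the Mycn start (chr12:12945197-12946370). The member with the top SOX17 score by the same order lay in an intron of Cpa6 (chr1:10636282-10636733), and its GATA6 binding was lower after Oct4 knockdown. The top OCT4:SOX2 score was in an intron of Ly6f (chr15:75270193-75270853) and the top ESRRB score in an intron of Matn2 (chr15:34430461-34430947). A region in an intron of Brwd3 (chrX:108792929-108794312) held 19 GATA6 motifs, the most among members outside chromosome 18.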

How the data were processed

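The 18 MNase-seq libraries were grouped by the labels, and no library entered a comparison, since no column used carried MNase signal. Per the labels and methods, the authors processed reads with bcl2fastq, cutadapt, Bowtie2 and SAMtools on the mm10 build. They kept reads above a mapping quality cutoff. They ran MACS2 on pooled replicates to find GATA6 peaks, of which those also found in every single replicate were kept. The deposited table has 105 columns, of which 34 were used. Not used were 59 signal columns, none of which belongs to a library given here, and 12 columns of grouped motif values. Motif scores were deposited as FIMO log-odds values of the best match to a JASPAR matrix, not normalized, and the deposited motif numbers are counts of matches per region. The authors assigned the GATA6 class by k-means of the log2 signal over input, the PTF and SOX17 classes by called peaks, the accessibility class by ATAC-seq at d0, the histone state by clustering of public ES cell data, and the knockdown class by DESeq2 on GATA6 libraries 48 h after Dox and siRNAs were given.

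The 4 scoring matrices were recovered by least squares from the deposited best motifs and the GRCm38 sequence, and rescanning gave the deposited presence and best score in 100% of regions. Windows reaching 100 bp to each side of summits, and equal windows 3 kb away on each side, the latter free of GATA6 regions, were then scanned, and their motifs kept the deposited lowest scores as thresholds. Summits were annotated with GENCODE M21. Shares carry 95% Wilson intervals, differences of shares Newcombe intervals and differences of means normal intervals. These cover counting error only, no test was run and no p-value is given, because regions are not replicates. The scripts were tested on simulated data.

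The members and all lists were chosen with earlier results of these data known, and the table is their only source. Regions were named by a rule that took the members with the highest scores, the most GATA6 motifs or the highest GATA6 score among lowered and raised members, and the member nearest to each listed gene with one within 100 kb. Regions of chromosome 18 were counted but are not shown. The alternatives were equal windows, an interquartile width, a score of at least 10, densities per kb, other distances, and leaving out promoter or repeat-masked summits. Computations ran in Python 3.11.15 with pandas 2.3.3, numpy 2.4.6, matplotlib 3.10.9 and scipy 1.17.1.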

Additional observations from a re-analysis of the deposited data

How the results depend on the processing

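Region width was the choice that moved the most values. Differences below are members minus other regions. With summit windows in place of whole regions, the excess of GATA6 motifs changed from 8.13 to 11.7 points and that of SOX17 motifs from 17.9 to 8.25, while OCT4:SOX2 went from 14.7 to -5.06 and ESRRB from 9.88 to -2.10. Without repeat-masked summits, an alternative chosen after seeing the data, these were 12.6, 8.55, -4.46 and -2.39. Among regions of interquartile width (369 to 778 bp, 1222 members) they were 6.03, 11.4, 7.29 and 2.23, and with a score of at least 10 they were 15.95, 15.6, 0.0232 and -0.628.

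The mean best score differed by 0.665 for GATA6, 0.360 for SOX17, -0.291 for OCT4:SOX2 and -0.514 for ESRRB. In summit windows these values were 0.341, 0.184, -0.983 and -1.04, and at interquartile width 0.328, 0.240 and -0.493 for the first 3. With the mean of all motifs they were -0.0363 for GATA6 and 0.0746 for SOX17. Motifs per region differed by 1.37, 0.817, 0.715 and 0.173, and per kb by 0.00704, 0.147, -0.0432 and -0.0619.

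At interquartile width the naive excess was 20.0 points (25.8 over all widths), facultative heterochromatin 11.1 (6.49, and 4.80 without promoter summits), lowered regions 11.4 (6.62), raised regions -2.67 (1.05) and constitutive heterochromatin 0.987 (-2.82). The deficit at promoters was -6.33 points, -5.01 at 500 bp and -7.39 at 2 kb. For regulators of other lineages the share with a member nearby was 10.1 points above all protein-coding genes, and -5.02 at 200 kb. The excess at PrE regulators was 53.9 points, 43.3 at 50 kb and 43.7 at 200 kb.

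Between lowered and raised members, the SOX17 motif differed by -15.2 points over whole regions, -27.5 in summit windows and -32.8 in summit windows at interquartile width, the last being added after seeing the data. For OCT4:SOX2 the values were -7.84, 1.43 and -0.755, and 1.45 with a score of at least 10. The causes were not tested. Of 53 alternatives for the main comparisons, 12 moved the value by less than its counting error. Another 30 moved it further without a change of sign, and 11 reversed its sign.

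No paired analysis was possible because no library entered a comparison and the columns used carry no replicate numbers. Leaving out a replicate was not possible for the same reason, and alternatives that needed the signal columns were not run. The table holds no counts per region, and the part of depth in absent peaks was not tested.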

Other observations

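Among the spacings of GATA6 and SOX17 motifs in the member summit windows, the most common was a SOX17 motif placed 22 bp before a GATA6 motif on the same strand. This spacing was singled out after its values were seen. It was found in 32 members (1.10%, 0.783 to 1.55) and in 102 of the other regions (0.258%, 0.213 to 0.313). Related closed sets also had it, in 15 regions with PTFs from d0 (1.53%, 0.932 to 2.52) and 12 without PTFs (0.833%, 0.477 to 1.45), of which 66.7% and 83.3% were repeat-masked, so it was not particular to members. The 32 members lay on 15 chromosomes. Their summits fell in repeat-masked sequence in 22 cases (68.8%, 51.4 to 82.0), against 15.0% of all members. Of the 32, 20 were naive and 9 constitutive heterochromatin, and the shares of these states over all members are given above. After Oct4 knockdown 1 was lowered and 2 were raised, with 6.25% and 8.57% over all regions. These calls are too few to set the 32 apart. In 25 of the 32 windows a run of at least 15 bases was shared with another of the windows. The printed pair, which shares a run of 82 bases on opposite strands, is shown for that reason, on the plus strand of mm10 with GATA6 and SOX17 motifs in capitals.
Intergenic naive region, chr5:46081088-46081288: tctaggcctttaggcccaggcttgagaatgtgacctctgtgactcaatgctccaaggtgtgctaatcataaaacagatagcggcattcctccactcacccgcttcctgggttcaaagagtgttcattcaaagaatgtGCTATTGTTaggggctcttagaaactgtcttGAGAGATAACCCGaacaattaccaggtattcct
Intergenic constitutive heterochromatin region upstream of Khdc1a, chr1:21344824-21345024: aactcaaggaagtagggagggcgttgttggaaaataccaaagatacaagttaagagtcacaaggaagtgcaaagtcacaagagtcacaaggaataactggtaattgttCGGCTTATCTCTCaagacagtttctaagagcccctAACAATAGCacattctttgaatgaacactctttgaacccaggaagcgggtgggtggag
Reads from repeats can fit more than 1 copy. Per the methods, the authors kept only reads above a mapping quality cutoff. The part of read placement in the binding at these regions was not tested.

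Members accumulated at a few genes that were on none of the lists and were picked here after their counts were seen. Amot, which encodes an adaptor of the Hippo pathway, had 6 members among 14 regions within 100 kb of its start. Vcam1 had 5 of 11, Bmp6, a BMP ligand gene, 5 of 12, Aqp8, a water channel gene, 5 of 16 and Rreb1, a zinc finger factor gene, 5 of 20. Further genes also had 5 members. Among them were Arhgap17 and Lcmt1, which start near Aqp8 and likewise had 5 of 16, so these counts do not single out Aqp8.

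Summits in repeat-masked sequence were less common in lowered members (10.3%) than in unchanged members (15.6%), with a difference of -5.33 points (-8.47 to -1.48).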
